A study of Mus musculus with 24 samples.

Results

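The genes that carry a cell through mitosis were examined as one set of 54 of the 25239 genes in the expression table, chosen by symbol as mitotic kinases, kinesins, kinetochore and condensin subunits and regulators of the G2/M transition. All 54 were among the 14104 genes that reached 1 TPM (transcripts per 1e+06 transcripts) in at least 3 libraries and were tested. The libraries came from 6 mouse small cell lung cancer lines, each derived from a separate tumour of mice homozygous for the alleles Rb1 flox and Rbl2 flox and for Trp53 XTR, and carrying Rosa26 FlpO-ER, in which adenoviral CMV-driven Cre had removed Rb1 and Rbl2 and trapped Trp53 in an inactive form. Every group, the controls included, shares these alleles. In Restored cells 4-hydroxytamoxifen (4-OHT) had activated the FlpO recombinase and so switched Trp53 back on, and Control cells had received the ethanol vehicle, so that exposure to 4-OHT and the return of p53 cannot be told apart. Lines 4711-1, 4711-18 and 4716-11 are Type D, which die by necrosis after p53 returns, and lines 4711-11, 4716-10 and 4716-14 are Type V, which stay viable and arrest. Each line was profiled as Control, Control + CsA, Restored and Restored + CsA at 72 h. CsA is cyclosporin A, a cyclophilin ligand that, as the study reports, protected Type D lines from this death. This gives 8 groups of 3 lines and 24 libraries, and values below are listed in the order of the lines named here.

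Entry into mitosis is driven by cyclin B bound to the kinase Cdk1, after which Polo and Aurora kinases, kinesin motors, kinetochore proteins and condensins build the spindle, attach chromosomes to it and compact them, and the anaphase-promoting complex ends the process by destroying cyclin B and securin. The transcripts of these proteins accumulate together late in the cell cycle, under Foxm1 and the complex of Mybl2 with MuvB. In cells with working p53 the Cdk inhibitor p21, the product of Cdkn1a, is known to bring RB-family and MuvB complexes onto their promoters, where a short element called CHR and nearby CCAAT boxes lie. Proliferating tumour cells carry high levels of these transcripts and arrested cells low levels.

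The labels were checked on the targeted gene first. Trp53 read 10.9, 13.9 and 10.7 TPM in the Type D Control lines and 213, 181 and 203 TPM in Restored, and 13.6, 14.8 and 14.1 TPM against 189, 214 and 253 TPM in Type V. Cdkn1a rose in step, from 109 ± 19.3 to 1991 ± 499 TPM for Type D and, for Type V, from 52.6 ± 17.7 to 1469 ± 353 TPM (mean ± SD, n = 3). The neuroendocrine markers did not match the label of small cell lung cancer in full, since Chga was listed at 0 in every library and Neurod1 and Calca stayed under 1 TPM everywhere. Fibroblast markers (6 genes, Col1a1 and Pdgfra among them) summed to between 0.451 and 1.93 TPM in the Type D Control and Restored libraries, whereas in Type V they summed to between 219.9 and 464 TPM in Control and between 27.8 and 189.5 TPM in Restored, and thus moved with restoration there. Of 5 immune markers Cd68 alone was detected, and it was higher after restoration by 1.95 in Type D and 1.28 in Type V on the log2 scale, while the 3 endothelial markers stayed under 1 TPM in all libraries. The part of these markers in the results below was not tested.

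Because the set is known for shared promoter elements, the promoters of the 3 genes that fell most and the 2 that moved least over the 6 lines are shown here. Each is the RefSeq window of 300 bases (GRCm38.p6) from 250 bases before to 50 bases after the annotated start, 5′ to 3′ on the strand of the gene. Capitals mark the CHR core (TTTGAA or TTCGAA) and the CCAAT box (CCAAT), searched on both strands, so that TTCAAA and ATTGG are the same letters read on the other strand. Plk1 (chr7:122159185-122159484, plus strand), Kif11 (chr19:37376132-37376431, plus strand), Bub1b (chr2:118597961-118598260, plus strand), Bub3 (chr7:131560120-131560419, plus strand, the first of 2 windows) and Pttg1 (chr11:43425932-43426231, minus strand) read as follows.
Plk1: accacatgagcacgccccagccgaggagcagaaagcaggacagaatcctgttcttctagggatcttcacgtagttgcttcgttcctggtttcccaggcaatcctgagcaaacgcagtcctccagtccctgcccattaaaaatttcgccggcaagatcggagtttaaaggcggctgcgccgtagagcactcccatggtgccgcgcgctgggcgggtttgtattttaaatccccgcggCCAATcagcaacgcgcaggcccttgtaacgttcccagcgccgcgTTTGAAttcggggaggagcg
Kif11: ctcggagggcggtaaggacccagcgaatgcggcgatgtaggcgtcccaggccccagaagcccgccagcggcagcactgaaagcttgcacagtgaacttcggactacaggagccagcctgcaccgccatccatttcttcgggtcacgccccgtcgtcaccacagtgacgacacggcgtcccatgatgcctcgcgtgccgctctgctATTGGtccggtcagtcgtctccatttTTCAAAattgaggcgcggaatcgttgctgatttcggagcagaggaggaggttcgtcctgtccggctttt
Bub1b: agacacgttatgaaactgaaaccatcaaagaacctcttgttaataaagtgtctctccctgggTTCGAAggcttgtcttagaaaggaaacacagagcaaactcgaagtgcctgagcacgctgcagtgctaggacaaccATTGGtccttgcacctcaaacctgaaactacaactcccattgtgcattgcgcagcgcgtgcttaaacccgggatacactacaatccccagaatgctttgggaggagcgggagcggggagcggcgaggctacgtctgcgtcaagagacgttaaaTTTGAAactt
Bub3: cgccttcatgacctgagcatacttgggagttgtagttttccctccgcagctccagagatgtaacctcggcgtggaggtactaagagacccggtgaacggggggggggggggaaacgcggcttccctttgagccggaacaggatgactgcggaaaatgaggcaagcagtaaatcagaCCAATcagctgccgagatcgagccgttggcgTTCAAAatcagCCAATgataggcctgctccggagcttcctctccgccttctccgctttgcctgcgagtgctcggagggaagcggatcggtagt
Pttg1: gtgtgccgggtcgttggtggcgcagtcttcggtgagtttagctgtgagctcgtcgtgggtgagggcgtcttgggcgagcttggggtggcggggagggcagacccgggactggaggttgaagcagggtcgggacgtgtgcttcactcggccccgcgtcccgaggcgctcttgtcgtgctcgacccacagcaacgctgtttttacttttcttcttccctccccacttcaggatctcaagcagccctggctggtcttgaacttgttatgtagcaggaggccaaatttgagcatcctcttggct

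The windows of Plk1, Kif11 and Bub1b each held both elements, and so did that of Bub3, one of the 2 genes that moved least, whereas that of Pttg1 held neither. In Plk1 the CCAAT box began 14 bases before the start and the CHR 31 bases after it, and in Kif11 both were read on the other strand, at 45 and 19 bases before the start. RefSeq windows were found for 45 of the 54 genes. Of these 45, 33 (73.3%) held a CHR core and 34 (75.6%) a CCAAT box, and 30 (66.7%) held both, against 21.7%, 41.1% and 8.61% of the 27025 genes with a window. The E2F-like letters TTGGCGC or TTCGCGC, the first of which can overlap an inverted CCAAT box, were found in 8 of the 45 (17.8%) and in 4.47% of all genes. Of 99 other genes of mitosis 46.5% held a CHR core, 56.6% a CCAAT box, 26.3% both and 11.1% the E2F-like letters. Of 24 genes of DNA replication 25% held a CHR core, 66.7% a CCAAT box, 20.8% both and 41.7% the E2F-like letters. Within the set, the 33 genes with a CHR core had a median change over 6 lines of -2.36 and the 12 without one of -2.13. Their ranges overlapped (-3.17 to -0.45 and -2.89 to 0.11). For the CCAAT box the medians were -2.42 in 34 genes with it and -2.09 in 11 without. For the E2F-like letters they were -2.12 in 8 genes and -2.38 in 37. Whether an element goes with the size of the fall was not tested. These matches describe letters in a window, not occupied sites.

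Restoring p53 lowered nearly the whole set in both types. Summed over the 54 genes the level was 6541 ± 194 TPM in Type D Control and 1244 ± 439 TPM in Type D Restored (mean ± SD, n = 3), and 6289 ± 695 against 1781 ± 31.9 TPM in Type V. The plot of summed TPM shows that no Restored library came near a Control library, the highest Restored value being 1802 TPM and the lowest Control value 5500 TPM. In Type D 51 of the 54 genes were called lower (limma, Benjamini-Hochberg adjusted p under 0.05 and a log2 change of at least 1 on log2(TPM + 1)) and 0 were called higher, where 2.44% of all genes tested were called lower and 4.49% higher. In Type V 49 were called lower and 0 higher, against 1.9% and 3.39% of all genes. The median change of the set was -2.70 in Type D and -1.95 in Type V, beside 0.07 and 0.05 over all genes tested. Relative to the Control mean, the median gene kept 15.9% of its TPM in Type D and 24.5% in Type V. These are bulk libraries, in which fewer cycling cells and less RNA per cell cannot be told apart.

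**Figure D1:**
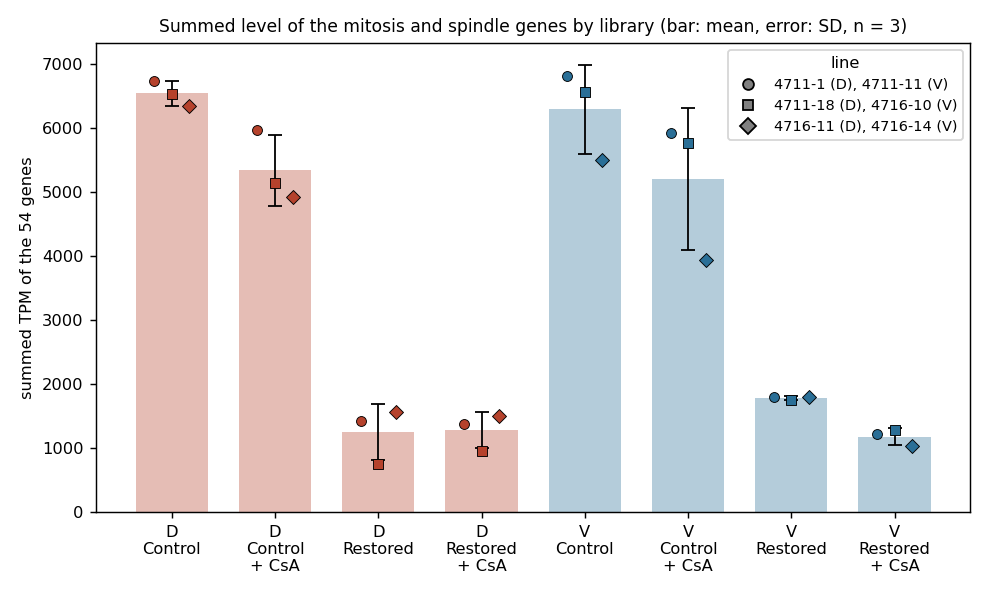
Summed TPM of the 54 mitosis and spindle genes in each of the 24 libraries, with bars for the mean of 3 lines, error bars for the SD and marker shapes for the lines. All Control libraries lie at or above 3931 TPM and all Restored libraries at or below 1802 TPM, with and without CsA.

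The lines of Type D differed in how far the set fell. The mean change over the 54 genes was -2.32 in 4711-1, -3.47 in 4711-18 and -2.05 in 4716-11, and 52 of the 54 genes fell most in 4711-18. In Type V the corresponding means were -1.98, -1.92 and -1.67, a spread across lines of 0.16 (SD, n = 3) beside 0.75 in Type D. Counting lines gene by gene, Restored was below Control in every Type D line for 53 genes, where 26.1% of all genes were, and in every Type V line for 53, where 25.3% were. Control and Restored libraries did not overlap for 53 genes in Type D, where 13.1% of all genes were lower without overlap, and for 52 in Type V, where 10.3% were.

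**Figure D2:**
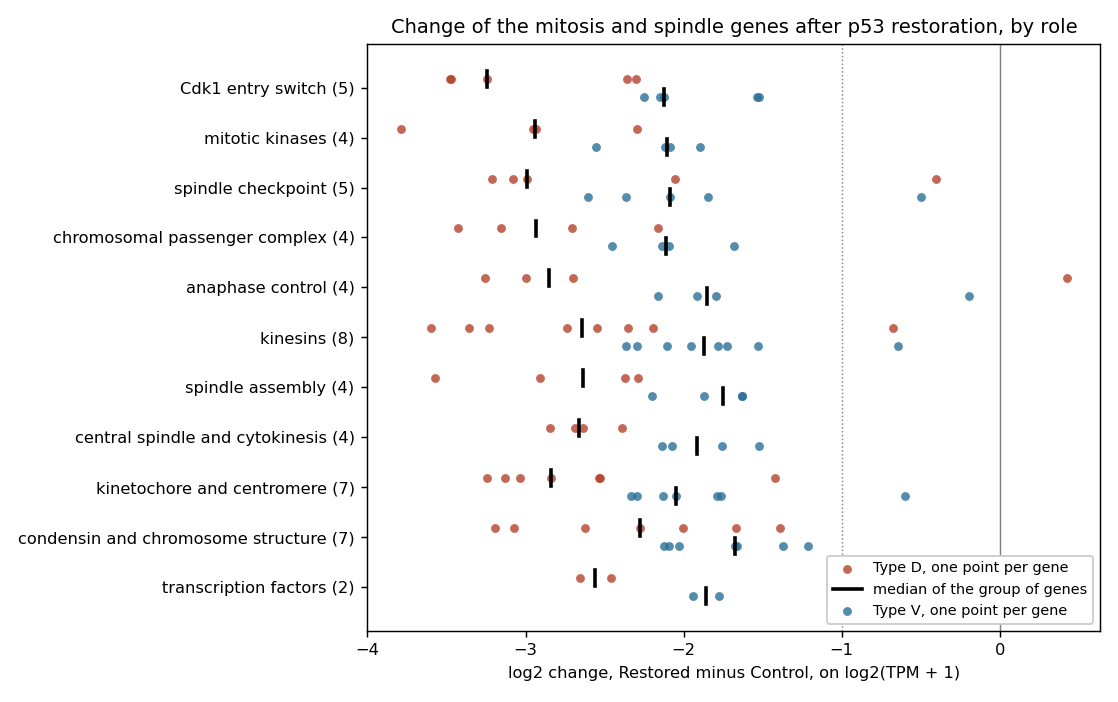
Change of each gene (log2, Restored minus Control, on log2(TPM + 1)) by role, with Type D in red and Type V in blue, a black bar at the median of each role and the number of genes in brackets. Medians lie between -3.24 and -2.28 in Type D and between -2.12 and -1.68 in Type V, and single genes of the spindle checkpoint, anaphase control and kinesins, and in Type V of the kinetochore, lie right of the dotted line at -1.

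The switch that starts mitosis fell together. All 5 of its genes were called lower in Type D (median -3.24) and 4 of 5 in Type V (median -2.12). Ccnb1, which encodes cyclin B1, read 143, 139.6 and 136 TPM in Type D Control and 14.1, 5.52 and 19.3 TPM in Restored, and 146, 137 and 116 against 28.9, 31.3 and 28.9 TPM in Type V. Ccnb2, the second B-type cyclin, went from 213, 206 and 189.9 to 26.8, 5.82 and 31.7 TPM across the Type D lines and, in Type V, from 179.8, 159.5 and 171 to 37.0, 37.1 and 38.7 TPM. Cdk1, their catalytic partner, fell less, from 132, 131 and 146 to 28.6, 18.3 and 36.9 TPM and from 132, 173 and 92.8 to 43.9, 53.2 and 35.5 TPM. The changes were -3.48 ± 0.31 and -2.12 ± 0.31 (SE) for Ccnb1, with limma adjusted p of 3.69e-07 in Type D and 0.000145 in Type V, and -2.30 ± 0.27 and -1.54 ± 0.27 for Cdk1. Of the phosphatases that activate Cdk1, Cdc25c fell by 3.24 and 2.25, and Cdc25b fell by 2.35 in Type D. In Type V the change of Cdc25b, -1.52 ± 0.54, missed the threshold (limma adjusted p = 0.0859), and with the cell line as a block it passed (adjusted p = 0.000163), which brings the Type V count to 50 (2.93% of all genes were called lower with the block).

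Among the mitotic kinases all 4 genes were called lower in both types (medians -2.94 and -2.10). Plk1, the Polo kinase of mitotic entry, centrosome maturation and cytokinesis, had the largest fall of the set in Type D. It read 178, 157 and 153 TPM in Type D Control and 14.9, 4.12 and 19.2 TPM in Restored, so that 7.83% of the Control mean remained, and it went from 214, 154 and 131 to 30.9, 24.1 and 26.2 TPM in Type V. Its change was -3.79 ± 0.41 in Type D and -2.56 ± 0.41 in Type V (limma adjusted p = 3.84e-06 and 0.000391). Aurka, the spindle pole Aurora kinase, went from 107, 121 and 98.8 to 15.6, 8.57 and 17.7 TPM across the Type D lines and, in Type V, from 106, 124 and 94.6 to 25.7, 26.3 and 21.9 TPM. In both kinases the lowest Restored value was that of 4711-18, and the Restored values of Type V lay above all those of Type D.

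**Figure D3:**
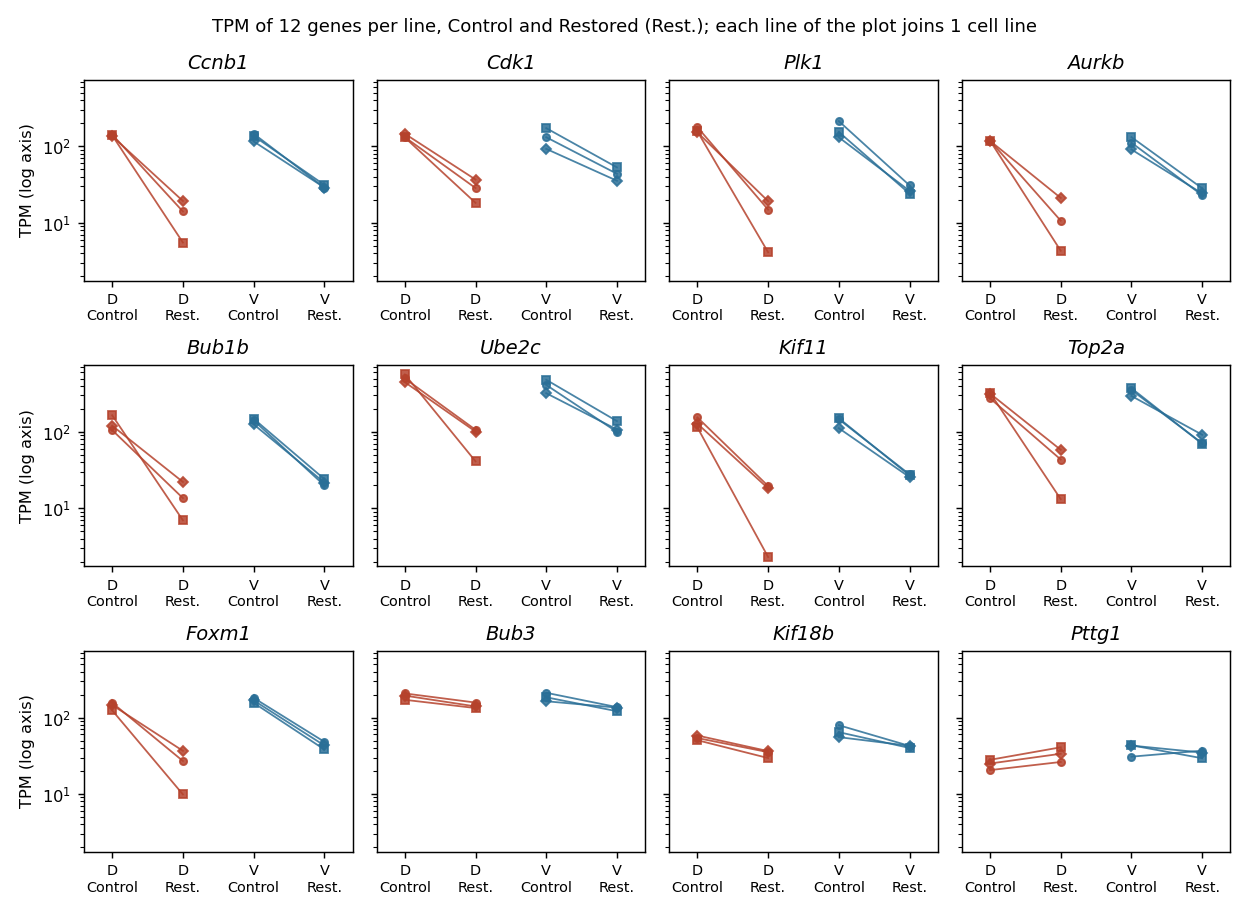
TPM of 12 genes (log axis) in Control and Restored cells of each line, Type D in red and Type V in blue, with circle, square and diamond for the lines in the order given in the text. Ccnb1 to Foxm1 fall in all 6 lines and lowest in 4711-18 (red squares), while Bub3 and Kif18b fall less (75.3% and 62.2% of the Control mean kept in Type D, 70.4% and 62.9% in Type V) and the Pttg1 groups overlap in both types.

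The spindle checkpoint, which holds anaphase until every kinetochore is attached, was split. Of its 5 genes 4 were called lower in each type (medians -2.99 and -2.09). Bub1b, encoding the checkpoint kinase-like protein BubR1, had the largest fall of the set in Type V. It went from 142, 149 and 126 to 20.0, 24.2 and 21.8 TPM there and from 106, 165 and 121 to 13.6, 6.99 and 22.2 TPM in Type D, with changes of -2.61 ± 0.28 and -3.21 ± 0.28. Bub1, its partner kinase, Ttk, the kinase that recruits the checkpoint, and Mad2l1, which binds Cdc20, fell, by changes of -3.08 to -2.06 in Type D and -2.37 to -1.84 in Type V. Bub3, the WD-repeat protein that docks Bub1 and BubR1 on kinetochores, stayed high, at 207, 171 and 194 TPM in Type D Control and 157, 133 and 139.8 TPM in Restored, and 211, 184 and 163 against 137, 121 and 135 TPM in Type V. Its changes of -0.41 ± 0.13 and -0.50 ± 0.13 did not reach a log2 change of 1, although the groups did not overlap (limma adjusted p = 0.0436 and 0.0165).

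The chromosomal passenger complex, which corrects faulty attachments around the kinase Aurora B, lost all 4 of its transcripts together, each called lower in both types (medians -2.93 and -2.11). Aurkb itself read 119, 119 and 118 TPM in Type D Control and 10.7, 4.31 and 21.2 TPM in Restored, and 112, 132 and 91.2 against 23.0, 28.3 and 24.2 TPM in Type V. Incenp, the scaffold, went from 241, 154 and 184 to 62.9, 21.7 and 52.1 TPM and from 174, 211 and 138 to 45.2, 60.5 and 53.8 TPM. Cdca8 (Borealin) went from 149.9, 108 and 123 to 21.5, 11.1 and 25.6 TPM and from 181, 129 and 105 to 28.3, 23.8 and 19.9 TPM. The scaffold kept the most in both types, 23.6% and 30.5% of its Control mean, beside 10.2% and 22.6% for Aurkb. Birc5 (Survivin), the fourth subunit, fell by 3.16 and 2.13.

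Anaphase control gave the one gene of the set with a positive change. Of its 4 genes 3 were called lower in each type (medians -2.85 and -1.85). Ube2c, the ubiquitin-conjugating enzyme of the anaphase-promoting complex and the most abundant transcript here by TPM, went from 501, 566 and 449 to 107, 41.3 and 101 TPM across the Type D lines and, in Type V, from 412, 481 and 321 to 100.1, 139 and 108 TPM. Cdc20, the activator of that complex, went from 361, 228 and 228 to 44.1, 19.4 and 39.6 TPM and from 234, 199 and 186 to 58.2, 52.8 and 50.7 TPM. Espl1 (separase), the protease that cuts cohesin, fell by 3.26 and 2.16. Pttg1, encoding securin, the inhibitor of separase, read 20.5, 28 and 25 TPM in Type D Control and 26.2, 40.8 and 33.6 TPM in Restored, higher in each of the 3 lines with overlapping groups. In Type V it read 30.8, 43.3 and 43.0 against 36.9, 29.4 and 34.8 TPM, higher in 1 line and lower in 2. Its changes of 0.43 ± 0.21 and -0.20 ± 0.21 did not pass the test (limma adjusted p = 0.216 and 0.685), so that separase fell while its inhibitor was not shown to change.

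Of the 8 kinesin motors 7 were called lower in each type (medians -2.64 and -1.87). Kif11 (Eg5), which pushes the spindle poles apart, went from 155, 115 and 128 to 19.7, 2.31 and 18.3 TPM across the Type D lines and, in Type V, from 147, 151 and 112 to 27.8, 27 and 25.7 TPM. Its changes were -3.60 ± 0.53 and -2.29 ± 0.53, and the value of 4711-18 stood apart from the other 2 Restored lines of Type D. Kif23, the motor of the centralspindlin complex, went from 173, 195 and 180.3 to 42.2, 21.6 and 46.8 TPM and from 125, 111 and 145 to 34.5, 32.4 and 46.5 TPM. Kif20a, Kif2c, Kif4, Kif18a and Kif14, which serve midzone assembly, microtubule depolymerization, chromosome arms, chromosome congression and cytokinesis, fell, by changes of -3.36 to -2.2 in Type D and -2.36 to -1.53 in Type V. Kif18b, a motor that trims astral microtubules, was the exception, at 53.9, 50.5 and 58.2 TPM in Type D Control and 35.2, 29.5 and 36.4 TPM in Restored, and 79.3, 64.4 and 55.4 against 42.5, 40.0 and 42.7 TPM in Type V. Its changes of -0.67 ± 0.20 and -0.64 ± 0.20 had limma adjusted p of 0.0292 and 0.0442 and were under a log2 change of 1.

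The 4 spindle assembly genes were all called lower in both types (medians -2.64 and -1.75). Tpx2, which activates Aurora A on the spindle, went from 119, 136 and 120.1 to 27.7, 18.4 and 29.7 TPM across the Type D lines and, in Type V, from 125, 139 and 128 to 39.7, 43.8 and 40.8 TPM. Hmmr, a spindle pole protein, went from 103, 89.9 and 86.1 to 17.1, 4.33 and 19.2 TPM and from 73.6, 85.3 and 80.1 to 24.8, 28 and 22.7 TPM. Troap, a microtubule-associated protein, had the third largest fall of the set in Type D, 3.58 ± 0.43, with 80.5, 83.1 and 70.7 TPM in Control and 7.91, 2.31 and 8.83 TPM in Restored. Genes of the central spindle and cytokinesis behaved alike, with 4 of 4 called lower in both types (medians -2.66 and -1.91). Racgap1, the GTPase-activating subunit of centralspindlin, went from 346, 263 and 288 to 64.8, 21.8 and 64.9 TPM across the Type D lines and, in Type V, from 276, 297 and 249 to 56.1, 70.6 and 66.6 TPM. Prc1, which bundles midzone microtubules, went from 193, 135 and 191 to 30.6, 11.1 and 34.7 TPM and from 182, 140.2 and 119 to 56.4, 29.8 and 44.5 TPM. Control and Restored groups were apart for each of these genes.

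Among the 7 kinetochore and centromere genes, 7 were called lower in Type D and 6 in Type V (medians -2.84 and -2.05). Cenpa, the histone H3 variant that marks centromeres, went from 160.1, 178 and 165 to 21.7, 15.3 and 34.4 TPM across the Type D lines and, in Type V, from 181, 194 and 175 to 34.2, 40.0 and 35.5 TPM. The 4 subunits of the NDC80 complex, which grips microtubule ends, did not fall equally. Ndc80, Nuf2 and Spc24 fell, by changes of -3.13 to -2.53 in Type D and -2.33 to -1.79 in Type V, whereas Spc25 changed by -1.42 ± 0.23 and -0.60 ± 0.23, the second value missing the threshold (limma adjusted p = 0.107). Spc25 read 68.1, 78.2 and 63.1 TPM in Type D Control and 28.2, 20.7 and 27.9 TPM in Restored, and 43.5, 71.3 and 47.8 against 28, 38.5 and 38.5 TPM in Type V, keeping 36.7% and 64.6% of its Control mean, while its dimer partner Spc24 kept 10.5% and 18.1%. The kinesin Cenpe and the large coat protein Cenpf fell by 2.53 and 3.24 in Type D and by 1.76 and 2.05 in Type V.

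All 7 genes of condensin and chromosome structure were called lower in both types, with the smallest median of the roles in Type D (-2.28, and -1.68 in Type V). Top2a, the topoisomerase that untangles sister DNA, went from 276, 325 and 318 to 43.6, 13.2 and 58.4 TPM across the Type D lines and, in Type V, from 354, 373 and 296 to 71.2, 70.1 and 91.9 TPM. Ncapd2, a condensin I subunit, went from 272, 286 and 301 to 72.1, 29.4 and 92.5 TPM and from 221, 284 and 245 to 73.2, 66.8 and 96.2 TPM. The core ATPases Smc2 and Smc4, which both condensin complexes share, fell least, by 1.39 and 1.67 in Type D and by 1.21 and 1.37 in Type V, whereas the condensin I subunit Ncapg fell by 2.62 and 2.09. Mki67, the proliferation marker that coats mitotic chromosomes, fell by 3.07 and 2.03. Both transcription factors were called lower in both types. Foxm1 went from 156, 124 and 146 to 27, 9.87 and 36.7 TPM across the Type D lines and, in Type V, from 181, 156 and 168 to 48.1, 38.2 and 43.1 TPM, and Mybl2 (B-Myb) from 42.9, 62.5 and 40.0 to 9.52, 5.57 and 8.94 TPM and from 47.5, 43.5 and 34.2 to 10.8, 9.55 and 14.3 TPM.

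The order of the genes was similar in the 2 types. Across the 54 genes the change in Type D and the change in Type V had a Pearson r of 0.91 and a Spearman rho of 0.81, a description over genes that share the same libraries and normalization within each type. Pttg1 and Bub3 had the smallest changes in both, followed by Kif18b in Type D and Spc25 in Type V. The Control level of a gene had little to do with its change (Spearman rho -0.02 in Type D and -0.01 in Type V over the 54 genes).

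**Figure D4:**
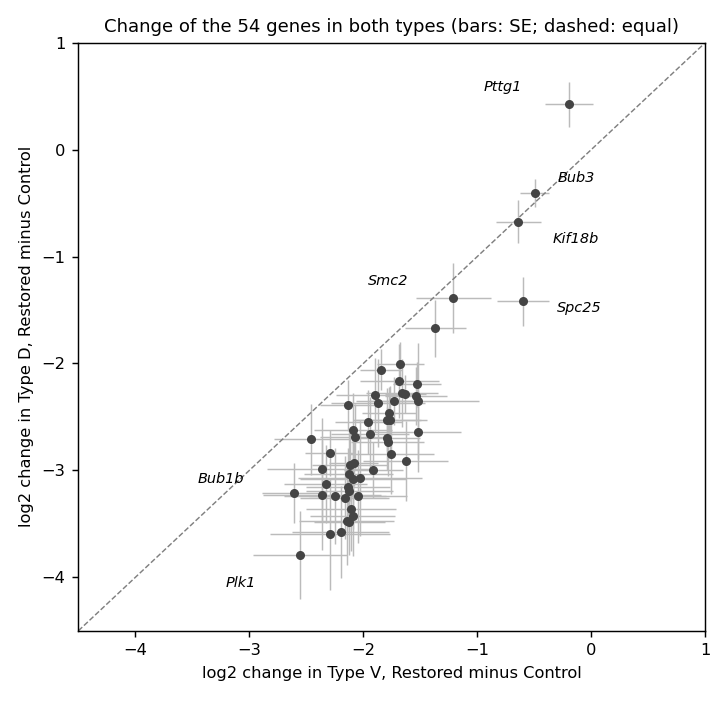
Change of each of the 54 genes (log2, Restored minus Control) in Type D on the vertical axis and Type V on the horizontal axis, with SE bars and a dashed line of equal change. All but Bub3 and Pttg1 lie below the dashed line, that is, fell further in Type D.

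Whether the types differ was tested directly. In Control cells 0 of the 54 genes were called between the types, where 4.42% of all genes were higher and 4.41% lower in Type D. The median difference was 0.04, beside -0.12 over all genes tested. In Restored cells 7 of 54 were called lower in Type D and 0 higher, against 4.99% and 4.45% of all genes. These were Ccnb1 (-1.29 ± 0.31), Birc5 (-1.27 ± 0.37), Plk1 (-1.24 ± 0.41), Aurkb (-1.23 ± 0.37), Top2a (-1.22 ± 0.38), Kif14 (-1.14 ± 0.32) and Kif4 (-1.03 ± 0.30), and 52 of the 54 differences were negative. Ccnb1, for example, read 28.9, 31.3 and 28.9 TPM in Restored Type V cells against at most 19.3 TPM in Type D. The count rested on single lines. Without 4711-18 it was 0, without 4716-11 it was 15, and without 4711-1, 4711-11, 4716-10 or 4716-14 it was 1, 2, 1 and 4, and it was 0 when the compared groups were fitted alone.

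The change on restoration was larger in Type D for 52 of the 54 genes, with a median difference of -0.78, and the 3 line changes of Type D all lay below the 3 of Type V for 28 genes, where they did for 9.02% of all genes tested. In the test of that difference 0 of the 54 were called (limma), where 0.00709% of all genes were called lower. With the cell line as a block 5 were called lower, where 1.3% of all genes were. These were Cdc20 (-1.08), Ccnb1 (-1.36), Prc1 (-1.09), Aurkb (-1.33) and Anln (-1.11), the last, a cytokinesis scaffold, named after its value was seen, with blocked adjusted p between 0.00909 and 0.0475.

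Other genes of mitosis were taken from 119 further symbols in 8 groups. In Type D 47 were called lower and 4 higher (median -0.59), and in Type V 44 lower and 4 higher (median -0.65). The 54 genes above had larger median changes. Both lists were chosen with earlier results of these data known, so this difference cannot be read as a result and was not tested. Among genes of the spindle, midzone and cytokinesis most were called, with 13 and 12 of 16 called lower, Aspm, a spindle pole protein, having the largest fall in Type D (3.23) and Kif22, a chromokinesin, in Type V (2.41). Of 31 further kinetochore genes 18 were called lower in each type, the largest fall in Type V being that of Cenpn, which reads Cenpa (-2.06), while Cenpt, which links centromeric DNA to NDC80, rose by 1.19 and 1.37. Of 18 cyclins, Cdk1 regulators and phosphatases 7 and 6 were called lower, with Ccna2, the cyclin of S and G2 phase, falling by 3.51 and 2.51, and Gtse1, a microtubule-binding protein known as a p53-inducible gene in mouse, rising by 2.10 and 2.22. The centrosome (2 and 2 of 10, led by the centriole kinase Plk4, -2.09 and -1.93), the anaphase-promoting complex and its inhibitors (2 and 1 of 17, led by Fbxo5, -1.69 and -1.34) and cohesin with its regulators (4 and 4 of 13, led by Sgo2a, -2.40 in Type D, and Cdca5, -1.83 in Type V) had few called genes. Of 3 condensin II genes Ncapg2 was called lower in Type D (-1.43) and 0 in Type V, where with the block its count was 1.

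The Myb paralogues moved in opposite directions. Mybl1 (A-Myb), the paralogue of Mybl2, read 5.57, 5.66 and 6.03 TPM in Type D Control and 44.4, 56.0 and 42.0 TPM in Restored, and 10.7, 5.68 and 6.62 against 56.4, 30.6 and 45.1 TPM in Type V, changes of 2.83 and 2.38 beside -2.46 and -1.77 for Mybl2. In the 11 genes of MuvB and the pocket proteins 2 were called higher in each type, Mybl1 and Rb1, and 0 and 1 lower. Rb1 transcripts, from the allele that Cre had recombined, rose by 1.60 and 1.97, with 7.75, 13.4 and 10.1 TPM in Type D Control and 22, 40.6 and 39.3 TPM in Restored. The one pocket protein gene that was not floxed, Rbl1 (p107), was not called, at 32.1 ± 6.24 and 29.3 ± 2.84 TPM in Type D and 32.7 ± 2.04 and 33.7 ± 10.9 TPM in Type V, and Rbl2 changed by 0.30 and 0.50 without passing the test. Lin9, a MuvB core subunit, fell by 1.16 in Type V and changed by -0.91 in Type D. Of 30 genes of DNA replication, which are transcribed earlier in the cycle, 1 was called lower in each type (Mcm10, an initiation factor, -1.75 and -1.48), and the median change was -0.43 and -0.46.

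The fall was also seen under CsA. Restored + CsA cells had 49 of the 54 genes called lower than Control + CsA cells in Type D, where 1.88% of all genes were, and 49 in Type V, where 1.77% were (50 with the cell line as a block, where 2.94% were). The medians were -2.31 and -2.30, and Plk1 fell most in both types, by 3.47 and 3.09. The 5 genes not called in Type D were Bub3, Pttg1, Kif18b, Spc25 and Smc2, and in Type V Bub3, Pttg1, Kif18b, Spc25 and Cdc25b.

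Added to Control cells, CsA gave small negative changes for all 54 genes in both types, with 0 called in either. None of them reached the log2 change of 1 that a call needs. The median changes were -0.32 in Type D and -0.29 in Type V, beside -0.03 and -0.01 over all genes, of which 0% were called in each. Mybl2 had the only unadjusted p under 0.05 of the set in each type, with -0.53 ± 0.24 and -0.51 ± 0.24. Summed levels went from 6541 ± 194 to 5341 ± 555 TPM for Type D and, for Type V, from 6289 ± 695 to 5208 ± 1109 TPM. Control and Control + CsA libraries were apart for 22 genes in Type D, where 2.94% of all genes were lower without overlap, and for 6 in Type V, where 1.19% were.

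CsA added to Restored cells gave negative changes throughout the set in Type V and mixed ones in Type D, and no gene of the set was called in either. A call needs a log2 change of at least 1, which no gene of the set reached here in either type. The counts of 0 were therefore set by that cutoff, whatever the p-values. In Type V the change was negative for all 54 genes, for 53 of them in all 3 lines (20.5% of all genes tested), with a median of -0.69 beside -0.02 over all genes, and the summed level went from 1781 ± 31.9 to 1177 ± 128 TPM. Aurka, for example, read 25.7, 26.3 and 21.9 TPM in Restored and 15.2, 17.9 and 11.9 TPM in Restored + CsA, and Plk1 30.9, 24.1 and 26.2 against 19.8, 14.3 and 9.91 TPM. For 41 genes these groups did not overlap, where 1.54% of all genes were lower without overlap. None of the differences was called by limma (0 of 54, and 0% of all genes), with Ccnb1, for example, changing by -0.89. In the main limma fit, which does not pair the libraries of a line, 22 of the 54 had an unadjusted p under 0.05. Of the 14104 genes tested 100 did. In Type D the change was negative for 12 of 54, the median was 0.10, and 0 were called, where 0.0142% of all genes were, and 0 had an unadjusted p under 0.05. The mean change over the set was -0.03 in 4711-1, 0.47 in 4711-18 and -0.08 in 4716-11, so the positive mean of 0.12 came from 4711-18, without which it was -0.06. Kif11 in that line read 2.31 TPM in Restored and 4.63 TPM in Restored + CsA.

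**Figure D5:**
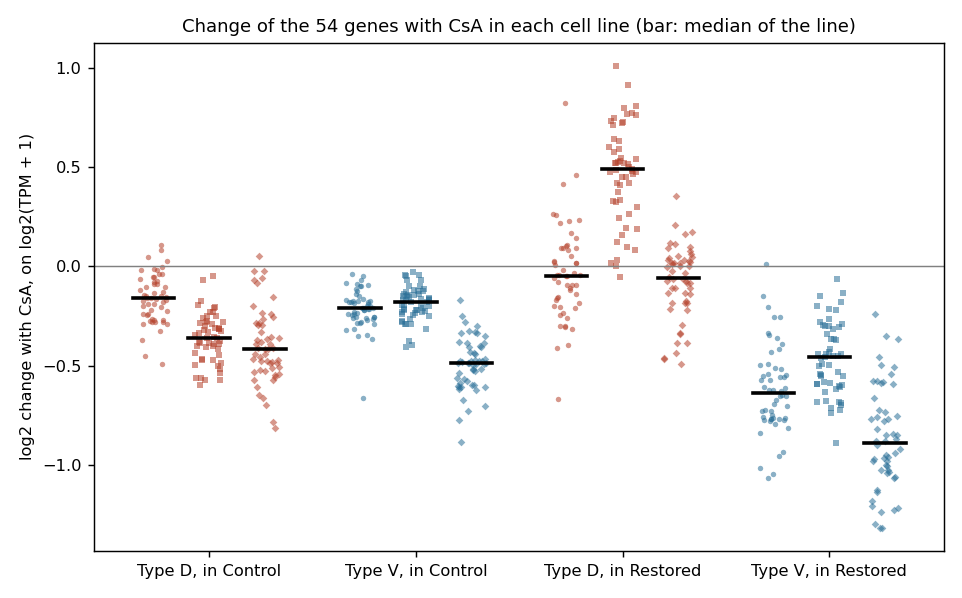
Change of each of the 54 genes with CsA (log2, on log2(TPM + 1)) in each line, for Control and Restored cells of Type D (red) and Type V (blue), with a black bar at the median of each line and circle, square and diamond for the lines in the order given in the text. In Restored cells the 3 Type V lines lie below 0 with means of -0.62, -0.46 and -0.87, and of the Type D lines 4711-18 alone has a mean above 0.

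The interaction of CsA with restoration was positive for all 54 genes in Type D (median 0.42, beside 0.03 over all genes tested). It was negative for all 54 in Type V (median -0.38, beside -0.01). In either type 0 were called, as were 0% of all genes tested. The genes share the same libraries, so their like signs are not separate observations. A further comparison, chosen after these values were seen, set the CsA change in Restored cells of Type D against that of Type V. It was more positive in Type D for all 54 genes (median 0.81, beside 0.03 over all genes), with 0 called, as were 0% of all genes. The CsA change was positive in every Type D line and negative in every Type V line for 11 genes, where this held for 3.06% of all genes tested.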

How the data were processed

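RNA from 6 lines in 4 conditions each was sequenced by the authors and deposited as one table of TPM for 25239 genes and 24 libraries. Per the methods and the labels the authors used kallisto or HISAT2, with mm10 and GRCm39 both named, and which of these gave the deposited TPM is not stated. Each column sums to 1e+06, so read depth is unknown, no counts were used, and no counting interval can be given. From 11853 to 12651 genes reached 1 TPM per library.

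Values were tested as log2(TPM + 1) with limma 3.58.1 in R 4.3.3 (trended variance, 8 group means), the tool and thresholds named in the methods of the study, over the 14104 genes with at least 1 TPM in at least 3 libraries, at a Benjamini-Hochberg adjusted p of 0.05 and a log2 change of 1. Changes on this scale understate those of low genes. Groups and lines came from the labels. Libraries of the same line deviated together from their group means (r from 0.60 to 0.93 over 36 pairs), so a fit with the line as a block was run too. Over 72 pairs of other lines of the type r was from -0.67 to 0.04. Deviations from a mean of 3 lines push these values below 0 by construction. No columns were identical. The p-values of the main fit measure the spread between lines within groups, with the libraries of a line treated as independent. Those of the blocked fit measure how far the changes within lines vary. Fits were repeated with 0.1 in place of 1 as pseudocount, without the filter, with a minimum of 5 TPM, with quantile and median-ratio scaling, on the compared groups alone and leaving out each line. The script was tested on simulated data.

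The genes, roles and lists were chosen with earlier results of these data known. Genes named are the 2 with the highest mean TPM in each role, the 3 largest and 3 smallest changes per restoration comparison, every gene called in another comparison, and the largest fall and rise in each further list, apart from genes not reported here. Further genes of a role, such as Espl1, Cdc25c, Ncapg and Mki67, were added as examples after their values were seen. Promoters and motifs come from RefSeq tables of GRCm38.p6, and no coordinates of that build were applied to the TPM. Windows were not given for Cdc25c, Foxm1, Spc24, Incenp, Aurkb, Kif20a, Smc4, Tpx2 and Dlgap5. Figures were drawn with matplotlib.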

Additional observations from a re-analysis of the deposited data

Results flagged for a closer look

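A total of 11 genes of the set were higher with CsA in every Restored Type D line and lower in every Restored Type V line: Ccnb1, Cdc25c, Nek2, Bub3, Kif18a, Kif14, Troap, Ect2, Spc24, Ncaph and Top2a. Of all genes tested 3.06% showed this pattern, and 53 of the 54 genes of the set were lower with CsA in every Restored Type V line. The largest difference between the types was that of Ccnb1, 0.46 in Type D and -0.89 in Type V, and the smallest that of Bub3, 0.04 and -0.15. The comparison of the CsA change between the types, added after the data were seen, called 0 of the 11 (limma adjusted p = 1 for each, and between 0.423 and 0.917 with the cell line as a block). 4 of the 11, Nek2, Kif18a, Ect2 and Ncaph, are named here for this pattern after their values were seen, as are Cdc25c and Spc24.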

How the results depend on the processing

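The number of genes of the set called after restoration ranged from 49 to 51 in Type D and from 36 to 50 in Type V over the alternatives, and from 46 to 51 and 41 to 50 with CsA, always lower and never higher. The count of genes of the set called lower in Restored Type D than in Restored Type V, 7 of 54 as reported, was 4 after quantile normalization, 0 with the compared groups alone and from 0 to 15 when one line was left out. For the difference of the restoration change between the types, the count of 0 became 5 with the cell line as a replicate block. The block changed no other count of the set by more than 1 gene. For CsA added to Control or to Restored cells, no change of the set reached a log2 of 1 in the main or the blocked fit. Those counts were therefore 0 whatever the p-values. The mean CsA change in Restored Type D, 0.12, ranged from -0.0570 to 0.22 when one line was left out, negative without 4711-18. The causes were not tested. In the CsA change of Restored Type D, 15 genes were negative with median-ratio scaling and 9 with quantile normalization, against 12. Without counts, the precision of low values such as Kif14 in Restored cells is unknown.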
